A study of Mus musculus with 18 samples.

Results

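Kinesins are the motor proteins whose genes carry the symbols Kif and Kifc, and their messages were measured in mouse thyroid. Members were every gene whose symbol starts with Kif and a digit, together with Kifc1, Kifc2 and Kifc3. RefSeq's GRCm38.p6 gene list holds 44 genes that met this rule, and 38 of them were represented on the array by 73 probes. All 38 passed the filter on dim probes, among 17928 genes tested. Kif19a, Kif28 and Kifc2, the noncoding gene Kif16bos and the pseudogenes Kif22-ps and Kif4-ps had no probe matched to them. The measured members were divided by role into 13 mitotic kinesins, 15 transport kinesins, 5 kinesins of cilia and centrioles, and 5 others.

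A kinesin couples the splitting of ATP to movement along, or disassembly of, a microtubule. One branch of the family builds the mitotic spindle, lines up and separates the chromosomes and completes cytokinesis, and its messages accumulate mainly in cells near mitosis. Another branch carries vesicles, mitochondria and membrane proteins in cells that do not divide. In the thyroid, shortage of iodine raises thyrotropin, which drives follicular cells to enlarge and divide.

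Total thyroid RNA of C57BL/6 mice was hybridised to single-colour Agilent arrays, 18 in all. On the normal NIH31 diet there were 5 wild-type (WT) and 5 Glis3KO2 (KO2) samples. On the low-iodine diet, given for 6 days, there were 4 WT and 4 KO2 samples. All mice were 1 month old and had been weaned at 3 weeks. KO2 mice carry a knockout of Glis3, the gene of a zinc finger transcription factor, and the deleted part, the promoter of any Cre and the sex of the mice are not given in the sources used here. Levels are log2 processed signals minus the array's 75th percentile, and differences are KO2 minus WT on that scale, each with its standard error (SE) from the fit. A gene was called at an adjusted p under 0.05 with limma. Levels of different genes come from different probes and are not compared with each other. Precision is set by the 4 or 5 arrays of each group. The study design counts 1 mouse to a sample; whether mice shared a litter is not given in the sources used here.

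The share of spots well above background ranged from 60.1% to 90.6% by array. It reached at most 75.7% on the normal diet and was at least 76.7% on low iodine. KO2 replicate 4 of the normal diet had the lowest share and the lowest median signal (44.96). The lowest signal well above background on that array was −4.66, the highest such value on the normal diet. WT replicate 2 on low iodine had the highest share and the highest median signal (191.5). Its dim probes read high, those of Kif2b, Kif2c, Kif17, Kif24 and Kif27 among them. Glis3 was read by 1 probe at −5.34 ± 0.56 (SD, n = 5) in WT and −4.89 ± 0.59 (n = 5) in KO2 on the normal diet, and at −1.24 ± 0.36 (n = 4) and −2.60 ± 1.15 (n = 4) on low iodine. Neither difference was called by limma, though on low iodine Glis3 was lower in KO2 at an unadjusted p under 0.05. On the normal diet the probe was well above background on 4 of 5 arrays of each genotype. Whether the probe lies in the deleted part is not known, so it does not check the labels. All 8 measured follicular cell markers were well above background on every array. Mice on the normal diet were hybridised on 3 slides (1 to 3), and mice on low iodine on 2 others (4 and 5) read by another scanner. The effect of diet and that of the array set therefore cannot be told apart. Both genotypes lie in equal numbers on every slide. Genes called higher and lower over the whole array numbered 92 and 157 on the normal diet and 1400 and 1287 on low iodine. With median scaling of the arrays the numbers were 54 and 147 and, on low iodine, 904 and 738. Without scaling they were 28 and 269 and, on low iodine, 255 and 1637. The normal-diet total of 249 also depended on single arrays. Leaving out KO2 replicate 4 raised it to 675. Leaving out WT replicate 2 or 5 lowered it to 157 or 146, and leaving out KO2 replicate 1, 3 or 5 lowered it to 160, 123 or 143. On low iodine the median difference over all genes was −0.02, 0.13 with median scaling and −0.29 without scaling.

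Promoter windows of the 2 branches are shown first, for the motifs known from late cell cycle genes. RefSeq promoter windows (GRCm38.p6) run from 250 bases before to 50 bases after the start that belongs to the window. The first window of a gene was used, and positions count from its start. That start can lie well inside the gene's listed span, as it does for Kif2c, Kif14, Kif27 and Kif3a. Windows matched 12 of the 13 mitotic kinesins, all but Kif20a, and 11 of the 15 transport kinesins, all but Kif5a, Kif5b, Kif13b and Kif21b. The letters TTTGAA, the core of the cell cycle homology region (CHR) to which MuvB complexes bind at late cell cycle genes, stood on either strand in 10 of the 12 mitotic windows (83.3%). They stood in 0 of the 11 first windows of transport kinesins and in 2 of all 20 non-mitotic kinesin windows, those of Kif26b and Kif27. Of all 27025 windows in the table, 18.1% held them. Within 25 bases of the start, measured to the motif's centre, TTTGAA stood in 8 mitotic windows (66.7%), against 2.62% of all windows. CCAAT, the box bound by NF-Y, stood in 8 mitotic windows (66.7%), 3 transport windows (27.3%) and 37.9% of all. Both motifs together occurred in 7 mitotic windows (58.3%), in no transport window and in 7.12% of all. E2F motifs (TTTGGCGC, TTTCCCGC, TTTGCCGC or TTTCGCGC) occurred in 2 mitotic windows, those of Kif15 and Kif18a, and in 2.32% of all. In the windows shown no TTTGAA match overlapped a CCAAT match. A match is a description of letters and not a binding site.

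The 8 mitotic windows with TTTGAA near the start are shown from 100 bases before the start to 25 from it onward, with 2 transport windows for contrast, all in the direction of transcription. They lie in GRCm38.p6 at chr19:37376282-37376406 on the plus strand (Kif11), chr9:122950981-122951105 on the plus strand (Kif15), chr11:102925100-102925224 on the minus strand (Kif18b), chr19:34922258-34922382 on the plus strand (Kif20b) and chr7:127042396-127042520 on the minus strand (Kif22). The others lie at chr9:61946775-61946899 on the minus strand (Kif23), chrX:100625965-100626089 on the plus strand (Kif4), chr17:33890609-33890733 on the minus strand (Kifc1), chr11:53567269-53567393 on the plus strand (Kif3a) and chr11:70700448-70700572 on the plus strand (Kif1c). Capitals mark TTTGAA or its complement TTCAAA, and CCAAT or its complement ATTGG.
Kif11: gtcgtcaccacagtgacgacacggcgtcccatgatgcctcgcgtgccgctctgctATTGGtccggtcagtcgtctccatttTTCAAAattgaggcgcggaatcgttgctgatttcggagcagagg
Kif15: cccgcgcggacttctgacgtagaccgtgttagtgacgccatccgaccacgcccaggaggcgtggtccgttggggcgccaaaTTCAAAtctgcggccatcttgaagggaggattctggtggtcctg
Kif18b: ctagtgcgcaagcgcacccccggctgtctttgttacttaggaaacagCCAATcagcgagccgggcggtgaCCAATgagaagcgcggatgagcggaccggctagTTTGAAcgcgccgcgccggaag
Kif20b: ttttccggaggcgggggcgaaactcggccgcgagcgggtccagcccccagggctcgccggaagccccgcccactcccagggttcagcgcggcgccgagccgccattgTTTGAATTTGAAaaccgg
Kif22: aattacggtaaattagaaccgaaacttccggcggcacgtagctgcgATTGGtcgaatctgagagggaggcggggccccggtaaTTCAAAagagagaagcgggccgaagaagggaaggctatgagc
Kif23: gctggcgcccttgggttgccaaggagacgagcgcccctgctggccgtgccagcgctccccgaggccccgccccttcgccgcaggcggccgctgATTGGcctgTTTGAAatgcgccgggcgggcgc
Kif4: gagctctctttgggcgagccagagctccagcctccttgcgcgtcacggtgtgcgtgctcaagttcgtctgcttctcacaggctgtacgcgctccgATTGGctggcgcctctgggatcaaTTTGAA
Kifc1: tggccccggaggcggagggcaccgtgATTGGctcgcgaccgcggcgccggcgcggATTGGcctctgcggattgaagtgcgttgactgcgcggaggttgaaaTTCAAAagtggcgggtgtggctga
Kif3a: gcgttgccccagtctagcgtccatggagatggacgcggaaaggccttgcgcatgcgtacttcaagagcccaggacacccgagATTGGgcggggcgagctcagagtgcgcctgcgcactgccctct
Kif1c: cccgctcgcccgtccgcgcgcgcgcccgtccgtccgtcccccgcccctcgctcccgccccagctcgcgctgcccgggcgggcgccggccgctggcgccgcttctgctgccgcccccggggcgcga

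In Kif20b the motif stands in tandem, with first bases at +8 and +14. In Kif18b and Kif23 it begins at +4 and +3, in Kifc1 at +2 on the other strand, and in Kif11 and Kif15 at −19, also on the other strand. Positions count the start base as +1, with no position 0. Kif14 and Kif2c carry it farther out, at −228 and −103. Kif18a and Kif2b are the mitotic kinesins whose windows lack it. Kif3a holds a CCAAT box without TTTGAA, and Kif1c holds neither. Among second windows, which the counts leave out, that of the transport kinesin Kif1a holds TTTGAA at −44.

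**Figure D1:**
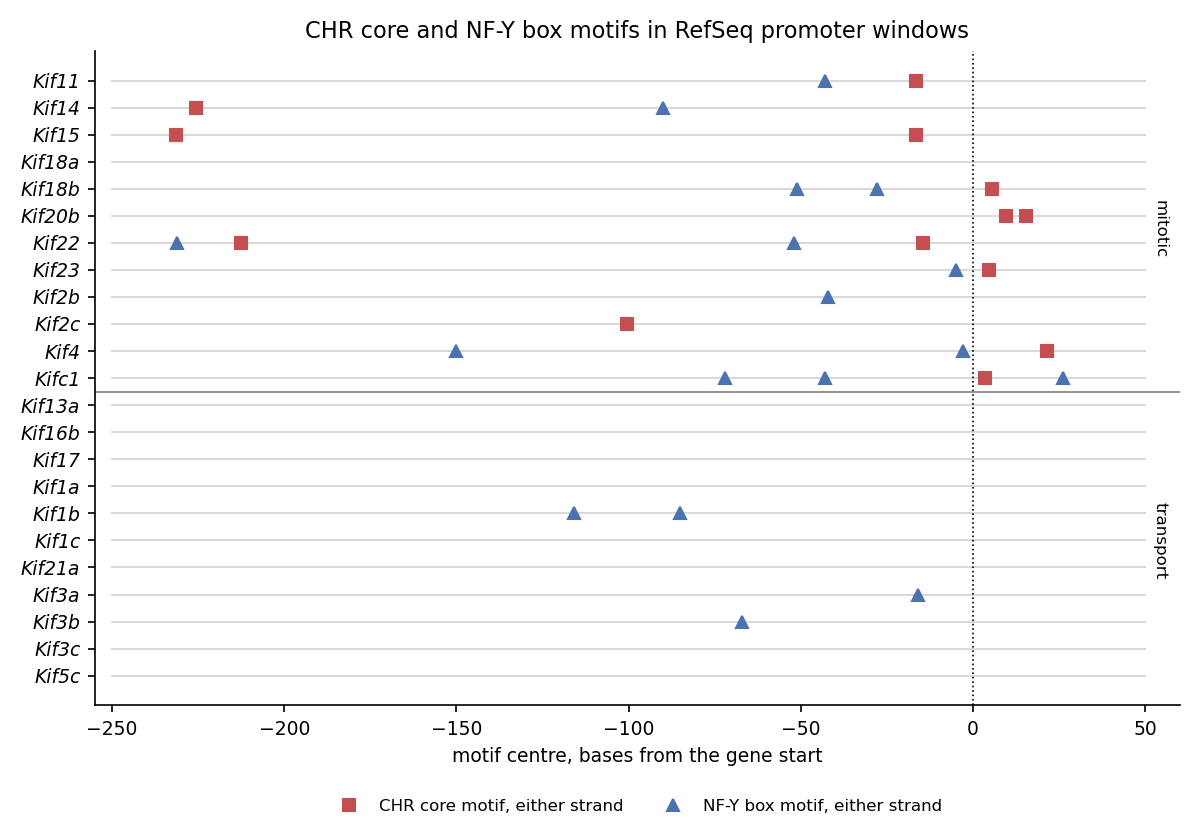
Positions of the CHR core motif (TTTGAA, squares) and the NF-Y box motif (CCAAT, triangles) on either strand in the RefSeq windows of 12 mitotic and 11 transport kinesins. The x axis gives the motif's centre in bases from the window's own start (dotted line), which the axis label calls the gene start. Squares occur in 10 mitotic rows and no transport row, and 8 mitotic rows hold one within 25 bases of the start.

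The first comparison asks which kinesin messages differ between KO2 and WT thyroids on the normal diet. Of the 13 mitotic kinesins, 6 were lower in KO2 and 0 higher by limma (11 and 0 at an unadjusted p under 0.05): Kif11, Kif18b, Kif2c, Kif20a, Kif23 and Kifc1, with adjusted p from 0.00694 to 0.0124. Kif20a, Kif23 and Kifc1 differed by −2.52 to −2.24, though Kif23 was well above background on only 1 of 5 KO2 arrays. For Kif11, Kif18b and Kif2c, below background on all KO2 arrays, only lower bounds of the fold are given. Over all genes 0.876% were called lower and 1.39% in either direction. The median difference of the mitotic list was −2.10, with 12 of 13 members negative, beside a median of 0.05 over all genes. It was −0.94 with the members that were below background on all KO2 arrays set at their lower bounds, or at 0 where there is no bound. Of the 25 kinesins of the other roles limma called 0, and 1, the transport kinesin Kif3c, had an unadjusted p under 0.05. The median of the 15 transport kinesins was −0.05. In 5 mitotic members every KO2 array lay below every WT array, as 1.63% of all genes did. In whole thyroids, fewer dividing cells and less of these messages per cell cannot be told apart.

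Kif11 is the plus-end motor that slides spindle poles apart, and Kif15 is its partner on spindle bundles. Kif11 levels were −4.67, −4.92, −5.32, −5.47 and −2.60 on WT arrays 1 to 5, and −7.27, −7.49, −7.09, −6.46 and −7.74 on KO2 arrays 1 to 5. No KO2 array reached the WT range, and WT replicate 5 stood well above the other WT arrays. No KO2 array read Kif11 well above background, so WT was at least 2.03-fold higher, with measured means of −4.60 and −7.21 and an adjusted p of 0.00694. Without WT replicate 5 this bound was 1.44-fold. The bound sets the WT mean against the higher of the KO2 signal and the lowest signal well above background on each KO2 array. A second, dimmer Kif11 probe, well above background on 9 arrays over both diets and genotypes, gave 0.03 on this diet. Kif15 levels were −5.72, −5.35, −6.34, −6.97 and −3.19 on WT arrays 1 to 5, and −7.18, −7.34, −6.52, −6.80 and −6.63 on KO2 arrays 1 to 5. The Kif15 groups overlapped, and the difference was not called (−1.38, SE 0.49, adjusted p = 0.213). The second Kif15 probe, well above background on only 5 arrays over both diets and genotypes, gave 0.31. Kif15 was well above background on 3 of 5 WT arrays and no KO2 array.

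Kif20a, Kif23, Kif20b, Kif14 and Kif4 act at the spindle midzone and in cytokinesis. Kif20a, which carries the chromosomal passenger complex there, read −0.04, −0.43, −1.04, −1.80 and 0.72 on WT arrays 1 to 5, and −3.60, −2.96, −3.64, −1.54 and −3.43 on KO2 arrays 1 to 5. KO2 replicate 4 lay above WT replicate 4, and all other KO2 arrays lay below the WT range. The difference was −2.52 (SE 0.46, 5.73-fold, adjusted p = 0.0112). Kif23, the motor of centralspindlin, read −2.96, −3.14, −3.41, −3.83 and −1.49 on WT arrays 1 to 5, and −6.25, −4.77, −5.90, −3.88 and −5.83 on KO2 arrays 1 to 5. Of the 5 KO2 arrays 1 read Kif23 well above background. The groups did not overlap, though KO2 replicate 4 came close to WT replicate 4, and the difference was −2.36 (SE 0.43, 5.12-fold, adjusted p = 0.011). Its second probe, well above background on 0 of 5 KO2 arrays, was also lower, with measured means of −3.37 and −6.31.

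Kif20b, needed for late cytokinesis, read −3.98, −4.16, −4.39, −4.29 and −2.85 on WT arrays 1 to 5, and −4.21, −5.12, −4.28, −5.07 and −4.77 on KO2 arrays 1 to 5. Kif14, which works with citron kinase at the midbody, read −6.14, −5.78, −7.52, −6.28 and −3.43 on WT arrays 1 to 5, and −8.48, −7.54, −8.37, −6.96 and −8.32 on KO2 arrays 1 to 5. Kif4, a chromosome-bound motor that sets midzone length, read −1.21, −1.44, −1.62, −2.18 and −0.19 on WT arrays 1 to 5, and −1.94, −2.26, −2.48, −2.05 and −2.18 on KO2 arrays 1 to 5. In all 3 the groups overlapped and WT replicate 5 was the highest array, and Kif14 was below background on all KO2 arrays. Their differences were −0.76, −2.10 and −0.86, with adjusted p of 0.268, 0.0667 and 0.126, so none was called.

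The next motors act on chromosomes and on the ends of microtubules. Kif18b, which with Kif2c disassembles astral microtubules, read −4.00, −4.88, −5.42, −6.09 and −3.04 on WT arrays 1 to 5, and −7.57, −7.44, −8.25, −6.82 and −6.67 on KO2 arrays 1 to 5. Kif2c, the depolymerase that corrects wrong attachments at kinetochores, read −4.28, −4.67, −5.43, −5.86 and −2.85 on WT arrays 1 to 5, and −7.19, −7.10, −6.98, −6.82 and −8.23 on KO2 arrays 1 to 5. Both genes had all KO2 arrays below all WT arrays, with no KO2 array well above background. WT was at least 1.92-fold higher for Kif18b (adjusted p = 0.0081) and at least 2.01-fold higher for Kif2c (adjusted p = 0.0124), where the measured means were −4.69 and −7.35 for Kif18b and −4.62 and −7.26 for Kif2c. Without WT replicate 5 these bounds were 1.44-fold and 1.48-fold.

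Kifc1 is a minus-end motor that focuses spindle poles, and its probe may also read its near-identical copy Kifc5b. Its levels were −1.64, −0.96, −2.19, −2.56 and −0.45 on WT arrays 1 to 5, and −3.67, −3.83, −4.54, −2.69 and −4.25 on KO2 arrays 1 to 5. The lowest WT array lay just above the highest KO2 array, and the difference was −2.24 (SE 0.38, 4.71-fold, adjusted p = 0.00953). Kif22, which pushes chromosome arms toward the equator, read 0.30, 0.84, 0.34, −0.34 and 2.03 on WT arrays 1 to 5, and −0.92, −0.77, −0.50, 0.09 and −1.05 on KO2 arrays 1 to 5. KO2 replicate 4 entered the WT range, and the difference of −1.26 was not called (SE 0.32, adjusted p = 0.0674).

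Kif18a, which damps chromosome movements at the equator, read −3.86, −3.80, −3.64, −3.69 and −2.55 on WT arrays 1 to 5, and −3.98, −3.91, −3.94, −4.06 and −3.85 on KO2 arrays 1 to 5. KO2 replicate 5 lay just above WT replicate 1 and the other KO2 arrays lay below the WT range, and the difference of −0.44 was not called (adjusted p = 0.465). Kif2b, another depolymerase of the same subfamily as Kif2c, read −7.81, −7.84, −8.36, −7.55 and −8.96 on WT arrays 1 to 5, and −8.47, −7.52, −8.31, −6.92 and −8.30 on KO2 arrays 1 to 5. It was not well above background on any normal-diet array of either genotype, and these values have no order.

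**Figure D2:**
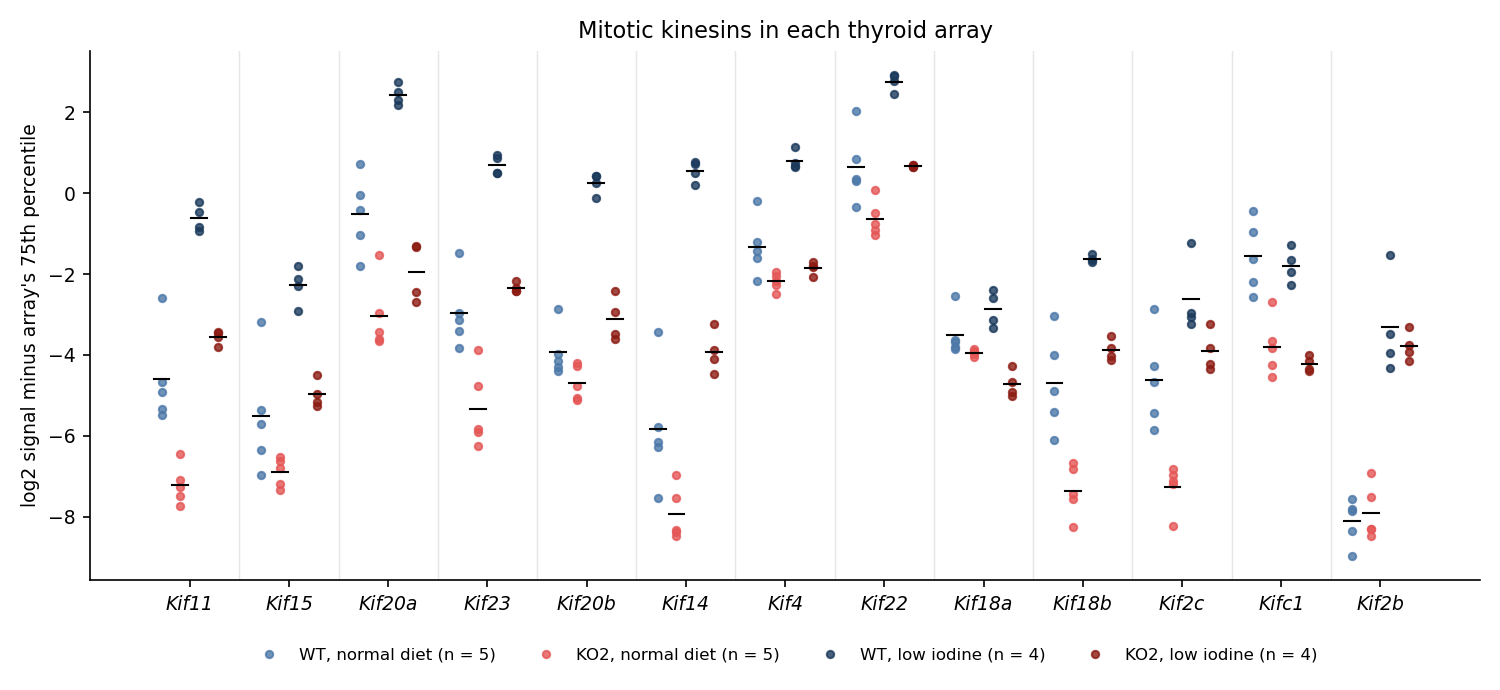
Level of each of the 13 mitotic kinesins (log2 signal minus the array's 75th percentile, y axis) on each array; points are single arrays, coloured by group, and black bars are group means. On low iodine the WT arrays of Kif14 lie between 0.20 and 0.77 and the KO2 arrays between −4.48 and −3.24; the lowest signal well above background lay between −6.68 and −4.41 depending on the array.

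WT replicate 5 was the highest normal-diet WT array for 12 of the 13 mitotic members, and KO2 replicate 4 the highest KO2 array for 8. Without both arrays 8 mitotic kinesins were called lower, and without WT replicate 5 alone 6 were, with a mitotic median minus transport median of −1.41 in place of −2.05. Markers of thymus and T cells were also highest in WT replicate 5: the mean level of 10 markers was 0.87 there and −3.06 to −1.31 in the other WT arrays. Over the groups it was −1.62 ± 1.52 (SD, n = 5) in WT and −3.40 ± 1.19 in KO2, with 2 of the 10 called lower (Psmb11 and Ccl25) and 4 at an unadjusted p under 0.05. KO2 replicate 2 had the highest thymus value of its group (−1.40) but not the highest mitotic level. Of the other cell types, the fibroblast marker Col1a1 was lower (−1.82, SE 0.40). Of 8 follicular cell markers 2 were called higher, Nkx2-1 (0.61) among them. Over all genes on this diet 0.876% were called lower, and 92 of 17928 were called higher. Skeletal muscle markers varied widely, at −0.36 ± 2.90 (SD, n = 5) in WT and 1.88 ± 4.07 in KO2, with 0 of 8 called by limma and 0 at an unadjusted p under 0.05. The part of these tissues in the normal-diet result was not tested.

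All 3 normal-diet slides gave a negative median for the mitotic list, −1.62 on slide 1, −1.01 on slide 2 and −2.45 on slide 3. The normal-diet calls rest on the pooled spread of all 18 arrays. With the 10 normal-diet arrays fitted alone, limma called 0 kinesins and 3 of all 17928 genes, and 11 mitotic members had an unadjusted p under 0.05. With the normexp background correction 3 mitotic kinesins were called, and the differences of Kif11, Kif18b, Kif23 and Kif2c shrank to between −0.67 and −0.37.

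The second comparison asks the same of mice on low iodine. Of the 13 mitotic kinesins, 11 were lower in KO2 and 0 higher by limma (12 and 0 at an unadjusted p under 0.05), against 7.18% of all genes called lower. By the brightest probe of each gene, Kif14 and Kif20a showed the largest differences of the family, 22.2-fold and 20.8-fold. In all 11 every KO2 array lay below every WT array, as 9.1% of all genes did. The median over the mitotic list was −2.65, beside −0.02 over all genes and 0.11 over the transport kinesins. Each member named was well above background on some array of each group.

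Among the spindle-sliding motors, Kif11 read −0.94, −0.84, −0.23 and −0.47 on WT arrays 1 to 4, and −3.43, −3.45, −3.56 and −3.80 on KO2 arrays 1 to 4. Kif15 read −2.92, −1.80, −2.29 and −2.11 on WT arrays 1 to 4, and −4.97, −5.25, −4.49 and −5.16 on KO2 arrays 1 to 4. In both, WT and KO2 were far apart, with differences of −2.94 (SE 0.46, adjusted p = 0.000466) and −2.69 (SE 0.55, adjusted p = 0.0037). Their second probes, well above background on 9 and 5 arrays over both diets and genotypes, gave −2.45 and −1.86.

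Of the midzone and cytokinesis motors, Kif20a read 2.50, 2.19, 2.74 and 2.31 on WT arrays 1 to 4, and −1.31, −2.44, −1.32 and −2.69 on KO2 arrays 1 to 4. Kif23 read 0.50, 0.85, 0.95 and 0.50 on WT arrays 1 to 4, and −2.42, −2.42, −2.35 and −2.17 on KO2 arrays 1 to 4. Kif14 read 0.71, 0.20, 0.77 and 0.49 on WT arrays 1 to 4, and −3.88, −4.10, −4.48 and −3.24 on KO2 arrays 1 to 4. The lowest WT array lay far above the highest KO2 array in each, and the KO2 arrays of Kif20a spread more widely than its WT arrays. The differences were −4.38 (SE 0.52, adjusted p = 4.23e-05) for Kif20a, −3.04 (SE 0.48, adjusted p = 0.000448) for Kif23 and −4.47 (SE 0.60, adjusted p = 0.000133) for Kif14. The second Kif23 probe gave −5.17, and the second Kif14 probe, which was dimmer, −0.61, which was not called.

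Kif20b read 0.25, −0.13, 0.42 and 0.42 on WT arrays 1 to 4, and −2.41, −2.94, −3.62 and −3.49 on KO2 arrays 1 to 4. Kif4 read 0.66, 0.64, 1.13 and 0.75 on WT arrays 1 to 4, and −1.82, −1.80, −2.08 and −1.70 on KO2 arrays 1 to 4. The 4 WT arrays of both lay close together and above every KO2 array. Kif20b differed by −3.36 (SE 0.34, 10.2-fold, adjusted p = 1.18e-05) and Kif4 by −2.65 (SE 0.29, 6.27-fold, adjusted p = 2.60e-05). The other probes of Kif20b gave −3.04 and −1.11, the second of these not called, and the other Kif4 probe −3.64.

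The chromosome and microtubule-end motors followed the same direction. Kif18b read −1.69, −1.64, −1.66 and −1.51 on WT arrays 1 to 4, and −3.53, −4.12, −3.83 and −4.03 on KO2 arrays 1 to 4. Kif22 read 2.76, 2.45, 2.92 and 2.88 on WT arrays 1 to 4, and 0.69, 0.63, 0.64 and 0.68 on KO2 arrays 1 to 4. Kif18a read −2.59, −2.39, −3.14 and −3.32 on WT arrays 1 to 4, and −4.68, −4.91, −5.01 and −4.28 on KO2 arrays 1 to 4. The KO2 arrays of Kif22 lay close together, and none of the 3 genes had overlapping groups. Their differences were −2.25, −2.09 and −1.86, with adjusted p of 0.0052, 0.00104 and 0.00024.

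Kifc1 read −2.27, −1.29, −1.96 and −1.65 on WT arrays 1 to 4, and −4.39, −4.36, −4.15 and −4.01 on KO2 arrays 1 to 4, a difference of −2.43 (SE 0.42, adjusted p = 0.00104). Kif2c read −3.07, −1.23, −2.96 and −3.24 on WT arrays 1 to 4, and −3.82, −4.22, −4.35 and −3.23 on KO2 arrays 1 to 4. Kif2b read −3.94, −1.54, −4.31 and −3.48 on WT arrays 1 to 4, and −3.75, −4.14, −3.93 and −3.31 on KO2 arrays 1 to 4. WT replicate 2, the array with raised dim probes, was the highest in both, and in both KO2 replicate 4 lay inside the WT range. The differences of −1.28 (adjusted p = 0.143) and −0.46 (adjusted p = 0.627) were not called.

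The mitotic list had negative differences in 13 of 13 members on both low-iodine slides, with medians of −2.42 on slide 4 and −2.67 on slide 5. Thymus markers averaged −2.71 ± 0.45 (SD, n = 4) in WT and −2.56 ± 0.12 in KO2 on this diet, with 0 of 10 called by limma and 0 at an unadjusted p under 0.05. Other markers did move with the genotype, on a diet where 7.18% of all genes were called lower and 7.81% higher. Of the endothelial markers 3 of 4 (Tek, Cdh5 and Pecam1) were lower, and their mean ranged from 1.63 to 1.88 in WT and from 0.57 to 0.68 in KO2. Of the fibroblast markers Col1a1 was lower (−3.92, SE 0.45) and Dcn higher (0.99, SE 0.23), and 2 of 5 C cell markers were higher. Of 7 multiciliated airway markers Dnah5 and Foxj1 were lower (−3.25 and −2.07), and the list mean ranged from −0.47 to 0.13 in WT and from −1.22 to −0.83 in KO2. Of 9 neuron markers 3 were lower and 1 higher. Of the 8 follicular cell markers Slc5a5 and Iyd were lower (−3.92 and −0.72) and Nkx2-1 higher (0.70). The part of these cell types in the kinesin result was not tested.

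**Figure D3:**
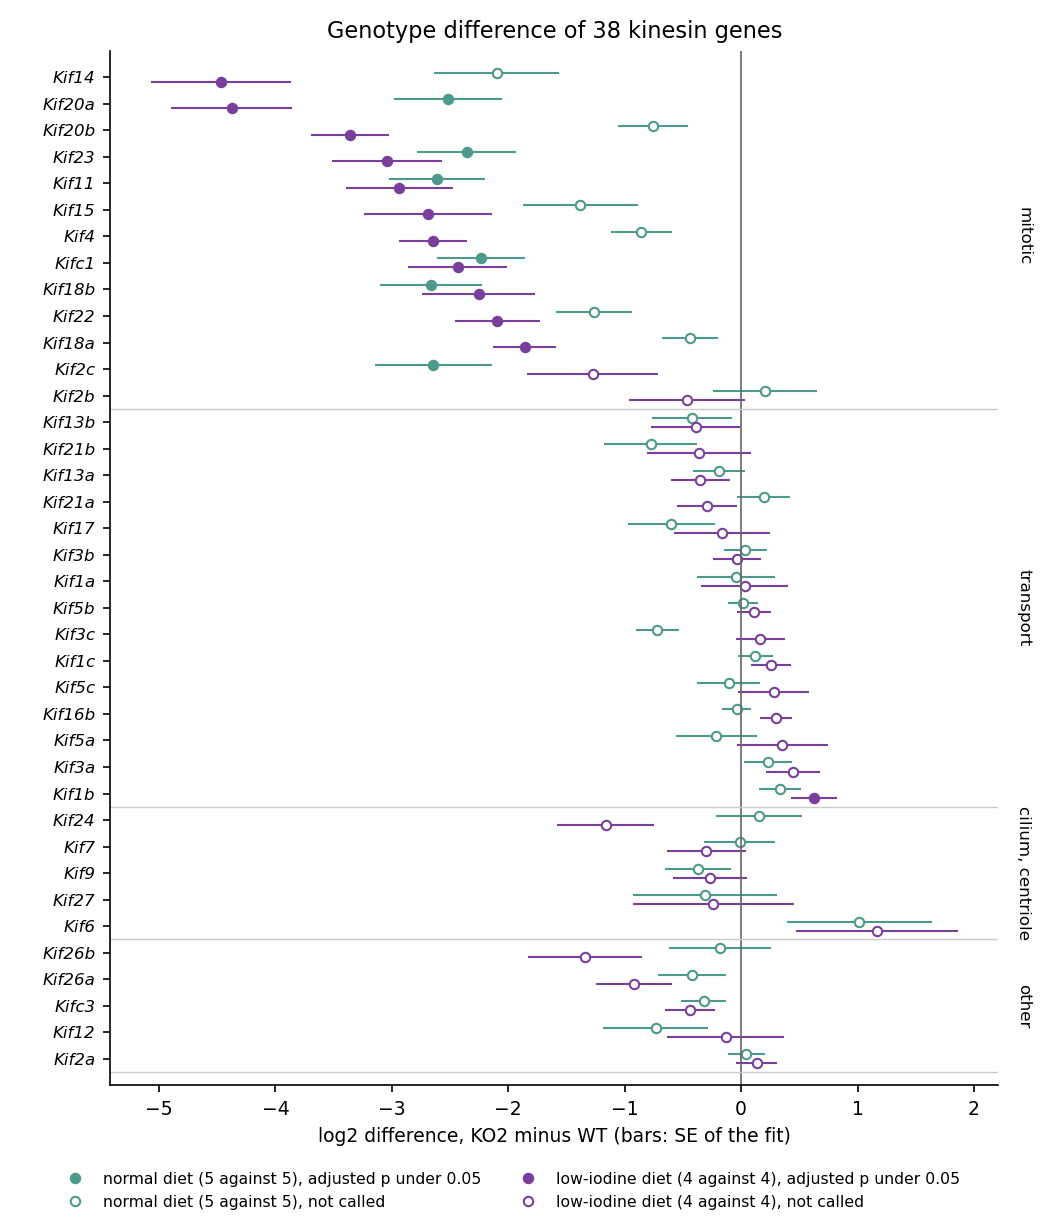
Log2 difference between KO2 and WT of all 38 kinesins on the normal diet (green) and on low iodine (purple), grouped by role; bars are the SE of the fit and filled points have an adjusted p under 0.05. Filled points number 6 on the normal diet and 12 on low iodine, and Kif1b is the filled point outside the mitotic group.

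The genotype by diet interaction asks whether the difference between genotypes differed between diets. Of the 38 kinesins it called 2, Kif20b at −2.60 (SE 0.45, adjusted p = 0.00986) and Kif4 at −1.79 (SE 0.39, adjusted p = 0.0349), both more negative on low iodine. Over all genes 0.865% had a called negative interaction. In 11 of the 13 mitotic members the estimate was negative, with a median of −0.83. Kif14 (−2.37, adjusted p = 0.181), Kif20a (−1.86, adjusted p = 0.225) and Kif18a (−1.42, adjusted p = 0.0657) were not called, and the normal-diet KO2 level behind the Kif14 estimate was below background. At the second Kif11 and Kif15 probes the interaction was −2.48 and −2.16, with adjusted p over all probes of 0.0238 and 0.0427. These probes were well above background on only 9 and 5 arrays, counted over both diets and genotypes. Their normal-diet differences of 0.03 and 0.31 may therefore rest on dim signals. How far this sets their interaction was not tested. The Kif4 call was lost without any 1 of 13 arrays (WT 2 and 3 and KO2 1, 2, 4 and 5 of the normal diet, WT 1, 3 and 4 and all 4 KO2 of low iodine), while Kif20b kept its call without any single array. Kif4 was also not called with slide as a block (adjusted p = 0.0553), with the replicate block (0.0691), without scaling (0.0855) or with median scaling (0.188). With slide as a block Kif18a took its place among the 2 calls (adjusted p = 0.0342). The other Kif4 probe gave an interaction of −2.83 (adjusted p over all probes 0.018). Leaving out WT replicate 5 of the normal diet raised the number called to 4, and with median scaling of the arrays limma called 0, with 8 kinesins at an unadjusted p under 0.05.

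Between diets, 12 of the 13 mitotic kinesins were higher on low iodine in WT, where 39.4% of all genes were called higher. In KO2 9 were higher, against 37.5% of all genes. Of these 9, 6 were below background on all normal-diet KO2 arrays (Kif11, Kif14, Kif15, Kif18b, Kif2b and Kif2c). Among the 12 in WT, Kif2b was below background on all normal-diet WT arrays. With probes well above background on all arrays, 5 of 6 mitotic members were higher in WT and 2 of 6 in KO2. Array set moved with diet, and 75.9% of genes were called in one direction or the other in WT, 7061 higher and 6541 lower. Median scaling moved the WT median over all genes from 0.08 to −0.91 and the calls to 4268 higher and 9648 lower, and 10 mitotic kinesins were then higher and 1 lower. Kif20b was 18.1-fold higher in WT on low iodine (4.18, SE 0.32). Kif14 was higher by 6.38 (SE 0.57) in WT, though well above background on only 2 of 5 normal-diet WT arrays, with 3.74 under normexp and 6.98 without WT replicate 5 of the normal diet. In KO2 Kif20b was 2.98-fold higher (1.57, SE 0.32), and Kif14 at least 3.25-fold, being below background on the normal diet. Kif20b was well above background on only 3 of 5 normal-diet KO2 arrays. Its call in KO2 was lost with median scaling, with quantile normalisation and with probes well above background on all arrays. Over all alternatives its difference in KO2 ran down to 0.35. Kif20a and Kif4, higher in WT by 2.95 and 2.12, were not called in KO2 (1.09 and 0.33, adjusted p = 0.0532 and 0.284). Kif18a was lower in KO2 on low iodine (−0.77, adjusted p = 0.0118), and its rise in WT (0.65, adjusted p = 0.0298) turned negative under median scaling and under quantile normalisation. Kifc1 was not called in either genotype. Of the 15 transport kinesins 5 were higher and 6 lower on low iodine in WT, and 5 higher and 4 lower in KO2. Kif3c was higher by 1.34 (SE 0.20) in WT and 2.23 (SE 0.20) in KO2, and Kif13b, a vesicle motor, differed by −1.37 (SE 0.36) and −1.34 (SE 0.36). With median scaling 2 transport kinesins were higher and 10 lower in WT. With the mean of a gene's probes 11 were higher and 2 lower in WT, and 9 higher and 2 lower in KO2. The direction of the transport list between diets thus depended on scaling and on the probes used.

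Set against the transport list on the same array, the mitotic list mean minus the transport list mean was −3.19 ± 0.92 log2 units in WT and −4.70 ± 0.36 in KO2 on the normal diet (SD, n = 5). On low iodine it was −0.34 ± 0.17 in WT and −3.01 ± 0.17 in KO2 (n = 4). The WT arrays on low iodine ran from −0.58 to −0.23 and the KO2 arrays from −3.24 to −2.84. On the normal diet the arrays ran from −4.11 to −1.71 in WT and from −5.05 to −4.17 in KO2. Only 5 or 6 of the 13 mitotic members were well above background on each normal-diet KO2 array, against 10 to 12 in normal-diet WT. The normal-diet KO2 mean thus rests largely on signals below background, and its distance from the other groups is uncertain. The transport mean itself stayed between −0.72 and −0.07 on all 18 arrays. These list differences are comparable between arrays only, since the 2 lists are read by different probes.

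**Figure D4:**
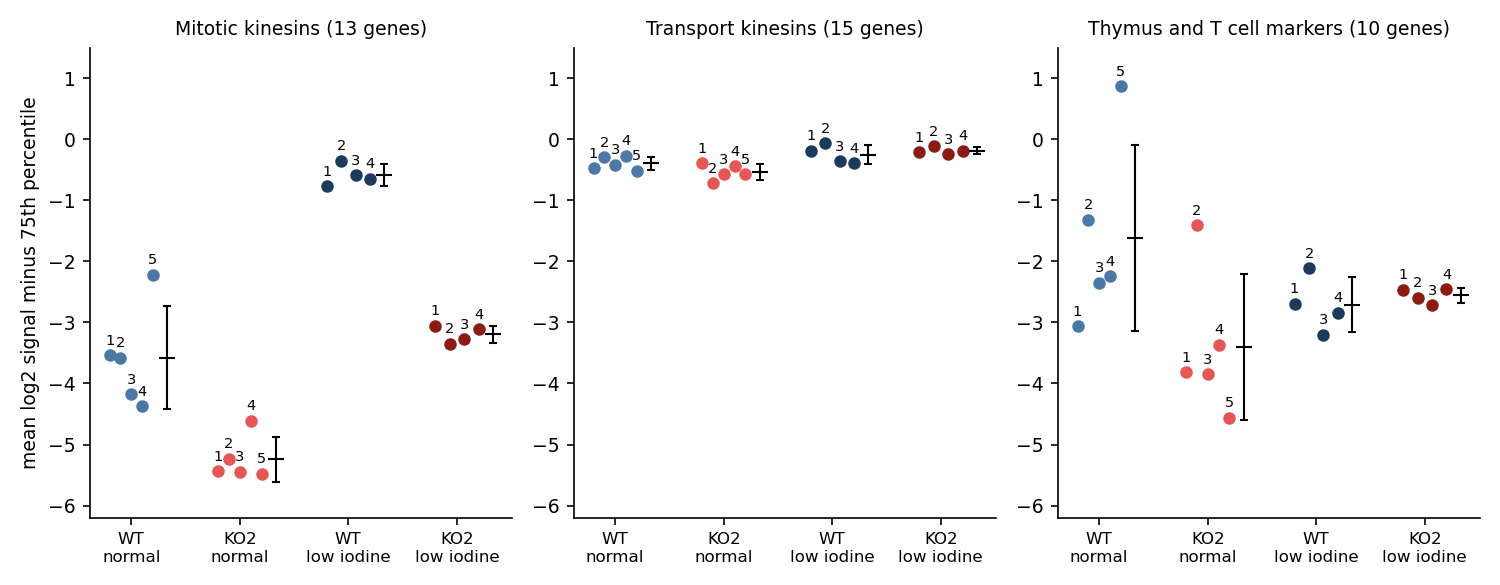
Mean log2 level (signal minus the array's 75th percentile) per array of 13 mitotic kinesins, 15 transport kinesins and 10 thymus and T cell markers; points are arrays with their replicate number, and bars are group mean and SD. The mitotic mean is −0.59 ± 0.18 in WT and −3.20 ± 0.14 in KO2 on low iodine, while the transport mean lies between −0.72 and −0.07 on all 18 arrays. On each normal-diet KO2 array only 5 or 6 of the 13 mitotic members are well above background.

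Of the 15 transport kinesins 0 were called on the normal diet and 1 on low iodine by limma, with an unadjusted p under 0.05 in 1 and 2. The 4 with the brightest probes among those not called were Kif5b, the ubiquitous heavy chain of conventional kinesin, its relative Kif5c, the Golgi and vesicle motor Kif1c and the endosome motor Kif16b. Kif5b read 5.20, 5.05, 5.02, 4.72 and 4.83 on WT arrays 1 to 5, and 5.01, 5.23, 4.99, 4.79 and 4.89 on KO2 arrays 1 to 5 on the normal diet. On low iodine it read 3.13, 3.30, 3.31 and 3.61 on WT arrays 1 to 4, and 3.61, 3.31, 3.35 and 3.51 on KO2 arrays 1 to 4. The genotypes overlapped on both diets, and the differences were 0.02 and 0.11 (SE 0.13 and 0.15).

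Kif1c read 1.52, 2.02, 2.18, 2.06 and 1.57 on WT arrays 1 to 5, and 1.87, 2.10, 2.04, 2.10 and 1.86 on KO2 arrays 1 to 5 on the normal diet. Low-iodine levels of Kif1c were 3.11, 3.01, 3.08 and 3.18 on WT arrays 1 to 4, and 3.47, 2.98, 3.33 and 3.62 on KO2 arrays 1 to 4. Genotypes overlapped on both diets, with differences of 0.12 and 0.26 (adjusted p = 0.815 and 0.369). Kif5c read 0.26, 0.73, −0.09, 0.26 and −0.31 on WT arrays 1 to 5, and 0.36, −0.56, −0.14, 1.10 and −0.45 on KO2 arrays 1 to 5 on the normal diet. Low-iodine levels of Kif5c were 2.83, 2.44, 2.63 and 2.49 on WT arrays 1 to 4, and 3.16, 2.64, 2.69 and 3.02 on KO2 arrays 1 to 4. Its differences were −0.11 and 0.28 (adjusted p = 0.924 and 0.629), with wide overlap on the normal diet.

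Kif16b read 0.36, −0.07, 0.12, −0.03 and 0.02 on WT arrays 1 to 5, and 0.17, −0.25, −0.05, 0.18 and 0.16 on KO2 arrays 1 to 5 on the normal diet. With low iodine the levels of Kif16b were −0.04, −0.27, −0.31 and −0.30 on WT arrays 1 to 4, and −0.05, 0.17, 0.09 and 0.04 on KO2 arrays 1 to 4. WT replicate 1 lay apart from the other low-iodine WT arrays, and the differences were −0.04 and 0.30 (adjusted p = 0.942 and 0.167). Of the remaining transport kinesins, Kif3c, a heavy chain of the kinesin-2 group, came nearest to a call on the normal diet (−0.72, adjusted p = 0.0679), while its dimmer probe gave 0.16. The others ran from −0.78 (Kif21b) to 0.23 (Kif3a) on the normal diet, Kif1b aside, and from −0.39 (Kif13b) to 0.44 (Kif3a) on low iodine. Kif21b, the one transport member highest in WT replicate 5 by a wide margin, read 1.01 there and −1.37 to −0.13 in the other WT arrays.

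Kif1b, a motor for mitochondria and synaptic vesicle precursors, was the transport kinesin called higher in KO2 on low iodine (0.63, adjusted p = 0.0451), where 7.81% of all genes were called higher. Its brightest probe read 1.52, 1.44, 1.31, 1.56 and 1.38 on WT arrays 1 to 5, and 2.05, 1.58, 1.87, 1.64 and 1.73 on KO2 arrays 1 to 5 on the normal diet. With low iodine this probe read 1.02, 0.83, 1.05 and 1.20 on WT arrays 1 to 4, and 1.02, 2.19, 1.92 and 1.47 on KO2 arrays 1 to 4. On the normal diet all KO2 arrays lay above all WT arrays, without a call (0.33, adjusted p = 0.453). KO2 replicate 1 lay inside the WT range on low iodine, and the call was lost under 23 of 29 alternatives and the sign turned under 1 other, with adjusted p from 0.00519 to 0.979 over all of them.

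Kif1b has 4 probes, and on low iodine the estimates for its 2 RefSeq transcripts had opposite signs. The probes matched to transcript NM_207682 gave 0.63 and 1.08 (limma over all probes, adjusted p = 0.0508 and 0.0089), and those matched to NM_008441 gave −1.06 and −0.69 (adjusted p = 0.0522 and 0.147). The second NM_207682 probe read −2.49, −1.25, −2.58 and −1.79 in WT and −0.77, −1.21, −0.66 and −1.18 in KO2. The brighter NM_008441 probe read −0.18, 0.39, 0.59 and 0.58 in WT and −0.54, 0.07, −1.20 and −1.21 in KO2. In the first the KO2 arrays all lay above the WT arrays, and in the second only KO2 replicate 2 reached above a WT array. The within-array log2 ratio of the NM_207682 probes to the NM_008441 probes was 2.27 ± 0.29 (SD, n = 4) in KO2 and 0.54 ± 0.28 in WT, a difference of 1.73 (exact permutation test, two-sided, p = 0.0286, the smallest that 4 against 4 arrays can give). On the normal diet the ratio was 3.44 ± 0.64 (n = 5) in KO2 and 3.06 ± 0.26 in WT, a difference of 0.39 (exact permutation p = 0.286). The transcripts were compared after their opposite signs had been seen, and the mean of the 4 probes gave −0.01 for the gene.

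**Figure D5:**
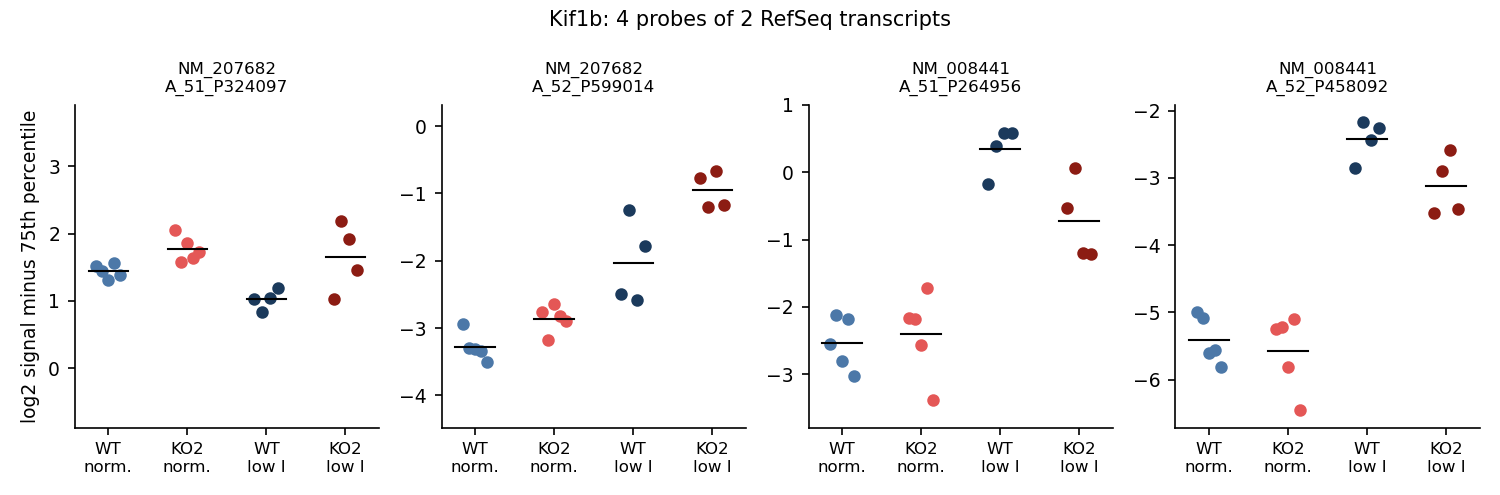
Level of each Kif1b probe (log2 signal minus the array's 75th percentile) on each array, with group means as bars; the panels carry the probe and its RefSeq transcript, and their y axes span the same width at different positions. On low iodine the KO2 mean is above the WT mean for the NM_207682 probes and below it for the NM_008441 probes.

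The kinesins of cilia and centrioles, Kif6, Kif7, Kif9, Kif24 and Kif27, were not called in either genotype comparison by limma; 0 had an unadjusted p under 0.05 on the normal diet and 1 (Kif24) on low iodine. Their differences ran from −0.37 (Kif9) to 1.01 (Kif6) on the normal diet and from −1.16 (Kif24) to 1.17 (Kif6) on low iodine. Kif24, which restrains cilium growth at the centriole, was nearest to a call (adjusted p = 0.0693 on low iodine). Kif7, the regulator of Hedgehog signalling at the cilium tip, differed by −0.01 and −0.30. Among the other kinesins, Kif26b (−1.34, adjusted p = 0.0769) and Kif26a (−0.92, adjusted p = 0.07) were not called on low iodine, and all KO2 arrays of Kif26a lay below all WT arrays. The probes disagreed: over all probes the other Kif26b probe was called at −2.20 (adjusted p = 0.000946), with an interaction of −2.12 (adjusted p = 0.0486) that sets it against normal-diet levels above background on 1 WT and 0 KO2 arrays. The other Kif26a probe gave 0.36. Kif2a (0.04 and 0.13), Kif12 (−0.73 and −0.13) and Kifc3 (−0.32 and −0.44) were not called on either diet.

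Genes that work with the kinesins were followed in 3 companion lists. Of 19 measured mitotic partners, KO2 thyroids had less of 12 on the normal diet and of 18 on low iodine, against 0.876% and 7.18% of all genes, with 0 higher on either, called or at an unadjusted p under 0.05, and medians of −2.08 and −3.39. The mitotic motor Cenpe, a kinesin by structure whose symbol lies outside the rule, fell by 2.11 (SE 0.36, adjusted p = 0.00962) and by 3.21 (SE 0.40, adjusted p = 7.05e-05). On low iodine Kntc1 of the kinetochore differed by −3.39, the cytokinesis activator Ect2 by −4.19 and the passenger protein Cdca8 by −4.81. The mitotic kinase Cdk1 was below background on all 4 KO2 arrays and at least 24.2-fold higher in WT, with measured means of −0.83 and −6.82. Mki67, a marker of cycling cells, differed by −3.34 (adjusted p = 0.00744) and −5.54 (adjusted p = 2.44e-05). Among the partners, TTTGAA stood in 13 of 17 promoter windows (76.5%) and CCAAT in 14 (82.4%).

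Of 15 measured light chains and cargo adaptors of kinesin, 0 were called on the normal diet by limma, with 1 at an unadjusted p under 0.05. On low iodine 6 were higher and 0 lower (7 and 1 at an unadjusted p under 0.05), against 7.81% of all genes called higher. The light chain Klc3 was higher by 1.55 (SE 0.20, adjusted p = 0.000115), from −0.47 ± 0.18 in WT to 1.08 ± 0.16 in KO2 (SD, n = 4). The scaffold proteins Mapk8ip3 and Mapk8ip2, which tie kinesin to its cargo and to kinase signalling, were higher by 1.04 and 0.84 (adjusted p = 0.00932 and 0.00894). The lysosome adaptor Arl8a was higher by 0.72 (adjusted p = 0.0147). Of 20 subunits of cytoplasmic dynein and dynactin, the motor of the opposite direction, 1 was called. It was the intermediate chain Dync1i1, lower on low iodine (−2.18, SE 0.58, adjusted p = 0.0181), where 7.18% of all genes were called lower. The median of that list was −0.02 on the normal diet and 0.10 on low iodine.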

How the data were processed

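Total RNA was amplified to cDNA before labelling, per the labels' protocols. Single-colour Agilent arrays were read with Agilent Feature Extraction 12, per the submitters' processing notes. The deposited intensities are its background-subtracted processed signals, per the file headers, and the deposited value table holds the same numbers (810324 of 810324 values equal within a relative 0.001). Control spots and spots with outlier marks were left out. Here log2 intensities were taken minus each array's 75th percentile. Probes not well above background on at least 4 of 18 arrays were left out, and the brightest probe stood for a gene. RefSeq named 28223 of 41174 probes (68.5%).

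Group means of all 18 arrays were fitted with limma 3.58.1 in R 4.3.3, with Benjamini-Hochberg adjustment over 17928 genes, and tested on simulated data. Values on every array were given for mitotic members, for members called in a genotype comparison and for the 4 brightest transport members not called. Members and lists were chosen with earlier results of these data known. Same-numbered arrays deviated together with correlations from −0.04 to 0.32, so the numbers were not taken as pairs. Alternatives changed the scaling, filter, probe, blocks and samples. The normexp fit on median signals, the Kif1b probe comparison and the fit without the highest mitotic arrays were added after seeing the data. Motor domain sequences were not analysed here.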

Additional observations from a re-analysis of the deposited data

Results flagged for a closer look

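In 12 of 152 groups of arrays examined, the highest or lowest array stood apart from the rest, where chance gives about 1 in 20. On the normal diet WT replicate 5 stood above the other WT arrays for Kif11 (−2.60), Kif18a (−2.55) and Kif20b (−2.85). WT replicate 4 stood above for Kif9 (−2.88), and KO2 replicate 5 stood below for Kif2c (−8.23) and Kif24 (−5.65). On low iodine WT replicate 2, the array with the raised dim probes, stood above for Kif2c (−1.23) and Kif24 (−3.72). WT replicate 1 stood above for Kif1a (0.32) and Kif16b (−0.0439). KO2 replicate 4 stood above for Kif3a (0.91), and KO2 replicate 2 stood below for Kif9 (−3.14). The genotype difference itself differed between diets for Kif20b (−2.60) and Kif4 (−1.79) by limma's interaction term, more negative on low iodine.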

How the results depend on the processing

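The number of kinesins called on the normal diet, 6 and all mitotic, was 3 with normexp on median signals, 3 with the replicate block, and 0 with the 10 normal-diet arrays alone, where 11 mitotic members had an unadjusted p under 0.05. With probes well above background on all arrays, 3 of 6 mitotic members left were called there and 6 of 6 on low iodine, beside 6 and 11 of 13. The interaction calls, 2 and both mitotic, were 5 with normexp, 5 with quantile normalisation, 4 without the highest mitotic array of each normal-diet group, 1 without scaling, 1 with the replicate block and 0 with median scaling. The replicate block also ended the low-iodine Kif1b call and took genes called over the whole array on the normal diet from 249 to 160 (61 higher, 99 lower). Called diet differences fell from 29 to 19 in WT and from 25 to 14 in KO2 with probes above background on all arrays. Mitotic kinesins higher on low iodine fell from 12 to 5 and from 9 to 2. Fewer members were left there, 25 kinesins with 6 mitotic ones among them. Kif20b, still included by another probe, lost its call in KO2. The mitotic median minus the transport median was −2.05 on the normal diet, −0.40 with normexp, −1.02 with probes above background on all arrays and −1.33 with the mean of a gene's probes. On low iodine it was −2.76, and −1.87 with normexp. In the interaction it was −1.05, −1.73 with quantile normalisation and −1.78 with probes above background on all arrays. Between diets in WT it was 3.38, and 1.90 with normexp, 2.63 with quantile normalisation, 2.45 with probes above background on all arrays and 2.21 with the mean of probes. In KO2 it was 2.15, and 0.96, 1.57, 0.58 and 1.20 under those same settings. Leaving out each array in turn gave 6 to 9 kinesins and 6 to 8 mitotic ones on the normal diet (−2.36 to −1.41), 11 to 13 and 11 to 11 on low iodine (−2.92 to −2.59) and 1 to 4 and 1 to 4 in the interaction (−1.39 to −0.89). Between diets it gave 26 to 30 and 11 to 12 in WT (2.96 to 3.80), and 24 to 26 and 9 to 10 in KO2 (1.88 to 2.33). Kif18a turned sign between diets in WT with median scaling (−0.34) and quantile normalisation (−0.24) and in KO2 with normexp (0.0506), and Kif1b on low iodine with the mean of its probes (−0.0127). The cause of these changes was not tested, though fewer members were left with probes above background on all arrays. Dim signals limit the normal-diet KO2 values of 6 mitotic members, none of which was well above background there.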
